A study of Mus musculus with 8 samples.

Results

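The loci of 9 genes of the early transcriptional response were examined for open chromatin in NIH3T3, an established line of immortal mouse embryo fibroblasts. They are Jun, Junb and Jund, then Fos, Fosb, Fosl1 and Fosl2, and the stress-induced Atf3 and the serum-induced Egr1. ATAC-seq, in which the Tn5 transposase inserts sequencing adapters into exposed DNA, had been applied to cells kept for 24 h on G128 or on G2. The labels explain neither name, and the series concerns hydrogels of polyvinyl alcohol and gelatin. Both groups were the same line in medium with newborn calf serum and had 2 libraries each. Nothing states that these came from separate cultures, so p-values measure only the spread between libraries, which may be technical. Peaks of the 4 lists that overlapped a fixed window around each gene were taken, with windows of 40 to 90 kb and 510 kb in total. Peaks that shared at least 1 bp between libraries were joined into regions, which gave 86 regions of 45915 in all. The windows held 76 and 83 peaks on G128 and 79 and 81 peaks on G2, for replicates 1 and 2 in that order, which holds for every pair of values below.

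Fos and Jun proteins are basic leucine zipper factors that pair to form AP-1. Jun proteins pair with one another or with Fos proteins, whereas Fos proteins need a Jun partner. Fos, Fosb, Jun, Junb and Egr1 are immediate early genes, which serum and other stimuli switch on without new protein synthesis. In fibroblasts AP-1 binds many enhancers and takes part in the responses to growth factors, adhesion and stress.

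The promoters of Jun, Junb, Fos and Fosb are shown because the called regions and 3 of the 5 widest regions lie in the windows of these genes. The sequences are the 250 bases before the start of transcription, taken from RefSeq on GRCm38.p6. Capitals mark matches to TGACG, TGACNTCA or GCGGGGGCG.
Jun (GRCm38.p6 chr4:95052223-95052472, minus strand): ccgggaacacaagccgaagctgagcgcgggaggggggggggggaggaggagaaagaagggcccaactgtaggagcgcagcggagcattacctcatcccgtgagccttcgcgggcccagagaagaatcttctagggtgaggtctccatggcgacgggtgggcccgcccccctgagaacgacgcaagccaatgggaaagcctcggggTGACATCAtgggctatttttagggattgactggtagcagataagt
Junb (GRCm38.p6 chr8:84978749-84978998, minus strand): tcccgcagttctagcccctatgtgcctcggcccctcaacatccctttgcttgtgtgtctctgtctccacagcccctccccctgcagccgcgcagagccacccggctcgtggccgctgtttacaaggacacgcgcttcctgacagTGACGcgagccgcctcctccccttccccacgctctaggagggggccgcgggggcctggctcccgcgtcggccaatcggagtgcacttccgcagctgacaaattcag
Fos (GRCm38.p6 chr12:85473640-85473889, plus strand): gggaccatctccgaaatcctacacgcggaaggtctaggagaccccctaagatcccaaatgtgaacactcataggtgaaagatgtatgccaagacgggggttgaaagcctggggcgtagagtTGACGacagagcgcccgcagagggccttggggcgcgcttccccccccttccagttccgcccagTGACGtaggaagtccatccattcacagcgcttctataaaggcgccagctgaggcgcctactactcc
Fosb (GRCm38.p6 chr7:19310046-19310295, minus strand): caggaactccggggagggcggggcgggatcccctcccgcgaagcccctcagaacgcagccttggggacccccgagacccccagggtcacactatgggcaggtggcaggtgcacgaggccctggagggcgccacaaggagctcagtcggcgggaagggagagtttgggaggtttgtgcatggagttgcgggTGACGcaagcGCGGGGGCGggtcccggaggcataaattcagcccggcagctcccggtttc
The peaks are on mm9, and no annotation of mm9 was used here. Whether a given peak lies on one of these promoters, in the gene or at a neighbouring gene was therefore not determined. On GRCm38.p6 the next protein-coding genes are Tmed10 and Jdp2 around Fos, and Rtn2 and Ercc1 around Fosb. They are Prdx2 and Hook2 around Junb, and Lsm4 and Iqcn around Jund. A region named below by its window was thus not assigned to the gene of that window.

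RefSeq promoters of 300 bases, 250 before and 50 after the start, were found for 7 of the 9 genes, and Fosl1 and Egr1 had no entry. Motifs were searched on both strands. TGANTCA, the AP-1 site, was in 0 of the 7 promoters and in 7.81% of the 32851 promoters of the table. TGACGTCA, the cyclic AMP response element, was in 0 of 7 and in 1.79% of all. The CArG box, bound by SRF, was in 0 of 7 and in 1.63% of all. Sequence outside these 300 bases was not searched for any motif, so a 0 does not show that a gene lacks the site. GCGGGGGCG, the Egr site, was in Fosb at position -50 and in Fosl2 at position -79, counted back from the start, and in 2.91% of all. After the sequences had been seen, TGACNTCA, which includes TGACGTCA, was searched and found as TGACATCA in Jun at position -45, and in 8.83% of all promoters. TGACG, the first part of TGACGTCA, was also searched then. It was in Fos at positions -129 and -66, in Fosb at -60, in Junb at -106 and on the minus strand in Atf3 at -7, and in 20.8% of all promoters. Of 25 other genes of the network or early response listed in advance, such as Srf, Maff and Dusp1, 19 had a promoter in the table. TGACGTCA was in 2 of these (Maff and Dusp1), the CArG box in 2 (Egr2 and Srf), GCGGGGGCG in 6, TGANTCA in 0, TGACNTCA in 3 and TGACG in 13. These are matches of letters and not shown to be bound sites.

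The height of a region is its summit over the background, the number of overlapping intervals at the highest point divided by the library's mean background. The background mean was 1.05 to 1.41 intervals per bp. G128 replicate 1 had the lowest background mean and 32540 peaks, against 37695 to 42358 in the others. It had a peak in 64 of the 86 regions, against 76 in the other G128 library and 74 and 80 on G2. Summits of shared regions were generally higher over the background on G2, with library medians of 50.3 and 58.1 times on G128 and of 67.3 and 68.7 times on G2. Each region is therefore also given as a scaled log2 difference, G2 minus G128, after subtraction of the library median of all 27768 shared regions.

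All 9 loci held strongly open chromatin on both materials. Of the 86 regions, 62 (72.1%) had a peak in all 4 libraries, against 60.5% of all regions of the genome. The median height of these 62 was 92.8 times the background, where all shared regions had 60.9 times. The height exceeded 100 times in 30 of the 62 (48.4%), against 30.6% of all shared regions. The median width was 930 bp against 627 bp. No test was made of these differences, since the loci were chosen with results of these data known.

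Jun stood highest of the 9 loci in all 4 libraries. Its dominant region, chr4:94716459-94720707, had summits of 304 and 390 times the background on G128 and of 456 and 458 times on G2. The means were 347 ± 60.3 on G128 and 457 ± 1.68 on G2 (SD, n = 2 each), and the groups did not overlap. The ratio was 1.32, and after scaling the log2 difference was 0.08 ± 0.10 (SE), with an adjusted p of 0.752 by limma. Its height was above that of 98.7% of shared regions. Its main peak ranked 17 and 18 by the authors' signal in the G128 lists and 15 in each G2 list. Around it, the other regions of the window were far lower. A region at -26.2 kb, to its left, had summits of 43.6, 49.6, 53.7 and 58.5 times the background, and the other 2 of its 4 regions had no peak in G128 replicate 1.

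Junb, a Jun protein with weaker activation of many AP-1 targets, had 13 regions in 40 kb. The strongest, chr8:87499357-87503200, had summits of 156.5 and 184 times the background on G128 and of 257 and 243 times on G2. The G2 values were both above the G128 values, with a ratio of 1.47. The scaled difference was 0.23 ± 0.11 (SE), and its adjusted p of 0.320 by limma did not pass 0.05. Another region, chr8:87504794-87505464, with its summit 2.45 kb to the right of the strongest one, had the largest scaled difference of all 62 shared regions. Its summits were 37.0 and 56.0 times the background on G128 and 87.3 and 78.2 times on G2, without overlap. The scaled difference was 0.53 ± 0.17 (SE), with an adjusted p of 0.109, and the G128 libraries differed from each other by more than the G2 libraries. The scaled difference was 0.33 without G128 replicate 1 (adjusted p 0.364), and 0.72 without G128 replicate 2, where it passed the test (adjusted p 0.0118). A weak region on the other side, chr8:87498206-87498399, had 25.6 and 28.3 times on G128 and 21.8 and 27.0 times on G2. Its groups overlapped, and its scaled difference was -0.48 ± 0.22 (SE) with an adjusted p of 0.279. The window thus held regions with scaled differences of both signs. Of its 9 shared regions 7 were positive, against 52.2% of all shared regions.

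Jund, which many cells express without stimulation, had 7 regions in its window, and all 7 were shared. The strongest, chr8:73205901-73206810, had summits of 161 and 210.4 times the background on G128 and of 283 and 242 times on G2. The ratio was 1.41 and the scaled difference 0.17 ± 0.11 (SE), with an adjusted p of 0.484. Another strong region lay 16.6 kb away, at chr8:73222103-73223452, with 166 and 154 times on G128 and 196.5 and 230.2 times on G2. The order of the pair was reversed in G128 replicate 1, where the second region was the higher. Of the 7 regions, 6 had positive scaled differences, from 0.0026 to 0.18, against 52.2% of all shared regions, and none was called.

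**Figure D1:**
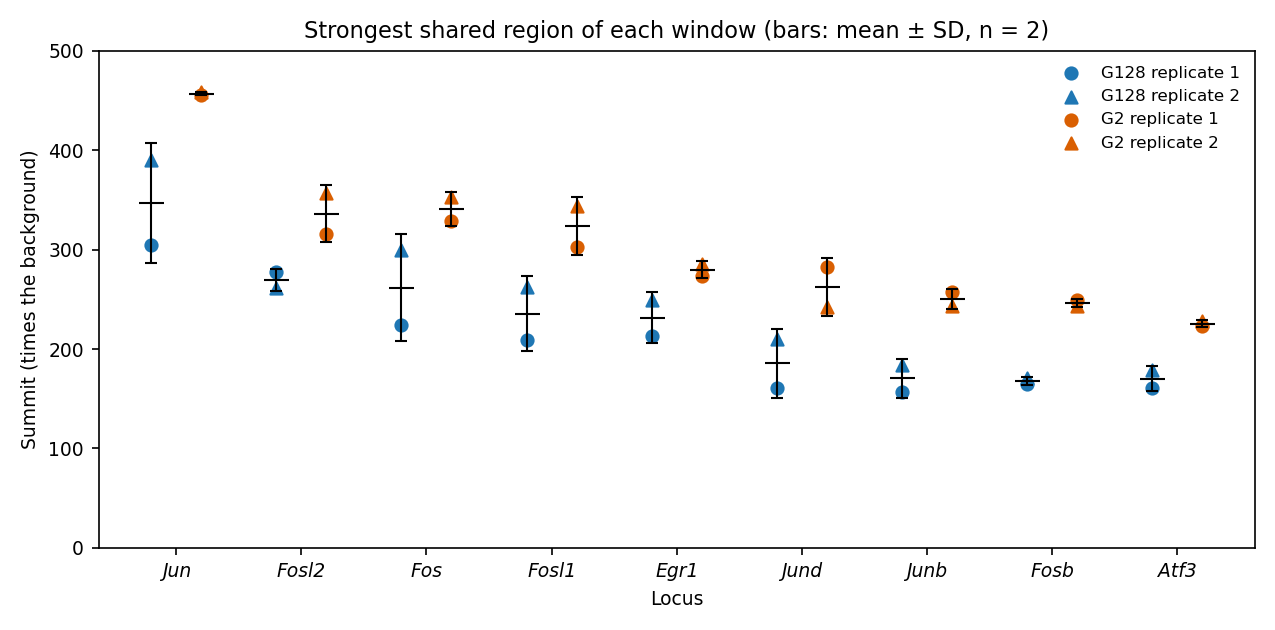
Summit of the strongest shared region in each window (vertical axis, times the background mean), with the loci ordered by their mean over the 4 libraries. Symbols are libraries, circles for replicate 1 and triangles for replicate 2, and bars are mean ± SD of the 2 libraries of a group. In all 9 loci both G2 libraries lie above both G128 libraries, as they do in 67.6% of all shared regions of any height. The share among equally high regions was not computed.

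The Fos window held 1 of the 2 regions among all 62 that passed the test, where 0.601% of all shared regions were called higher on G2. Fos itself is the prototype of the immediate early genes. The called region, chr12:86812808-86813853, had summits of 169.8 and 170.0 times the background on G128 and of 264 and 308 times on G2. The groups were far apart, with means of 169.9 ± 0.186 and 286 ± 31.5 (SD, n = 2 each) and a ratio of 1.68. The scaled difference was 0.42 ± 0.11 (SE), with an adjusted p of 0.0437 by limma. The adjusted p ranged from 0.00105 to 0.901 over 11 alternatives, of which 3 kept the call. The first of these 3 was the fit without median scaling, which left in the generally higher summits on G2 and gave the 0.00105. The others were the replicate block and leaving out G128 replicate 1, with differences of 0.42 and 0.52. Quantile normalization and cyclic loess each gave a difference of 0.35, with adjusted p of 0.183 and 0.137. The deposited signal gave 0.036, with an adjusted p of 0.901. A minimum mean height of 40 times the background gave an adjusted p of 0.0991, and a fit without the variance trend 0.254. Leaving out G128 replicate 2, G2 replicate 1 or G2 replicate 2 also ended the call, with adjusted p of 0.115, 0.136 and 0.523.

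The other strong regions of the Fos window differed less. The next region to its right, chr12:86814202-86815836, had summits of 185 and 260.0 times the background on G128 and of 293 and 309 times on G2. Its scaled difference was 0.12 ± 0.11 (SE), with an adjusted p of 0.622, and its highest summits fell within 1 bp of each other in the 4 libraries. The strongest region, chr12:86795788-86796985, lay 16.7 kb to the left of the called one. It reached 224 and 299.7 times on G128 and 328 and 353 times on G2, with a scaled difference of 0.06 ± 0.10 (SE) and an adjusted p of 0.817. On the right, chr12:86826433-86827582 had 147 and 143 times on G128 and 191 and 196.5 times on G2, a ratio of 1.34.

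Fosb, whose protein pairs with Jun proteins, held the other called region. It lay at chr7:19904773-19905828, 11.3 kb to the right of the strongest region of the window. Its summits were 142 and 149.5 times the background on G128 and 250.2 and 242 times on G2, with no overlap. The means were 146 ± 5.11 and 246 ± 5.88 (SD, n = 2 each), a ratio of 1.69. The scaled difference was 0.42 ± 0.11 (SE), with an adjusted p of 0.0433 by limma and a range of 0.0012 to 0.710 over 11 alternatives. Of these, 2 kept the call. The first was the fit without median scaling, which left in the generally higher summits on G2 and gave the 0.0012. The other left out G128 replicate 1, with a difference of 0.49. The call ended with the deposited signal, where the difference was 0.09 (adjusted p 0.710). It also ended with quantile normalization (0.173), cyclic loess (0.130), a minimum mean height of 40 times the background (0.0902), no variance trend (0.225), the replicate block (0.0502), and without G128 replicate 2 (0.0788), G2 replicate 1 (0.405) or G2 replicate 2 (0.250).

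The strongest Fosb region, chr7:19892296-19894576, had 165 and 171 times the background on G128 and 249 and 243 times on G2. Its scaled difference was 0.22 ± 0.11 (SE), with an adjusted p of 0.345. Directly beside it, chr7:19894686-19896025 had 136 and 181 times on G128 and 190.1 and 198 times on G2. There the scaled difference was -0.02 ± 0.12 (SE), and the 4 libraries had their highest summit at the same base. At the right end, chr7:19917325-19917603 had 43.6 and 33.3 times on G128 and 44.6 and 29.2 times on G2. It had the third lowest scaled difference of the set, -0.41 ± 0.22 (SE), with an adjusted p of 0.372 and overlapping groups. The difference moved with single libraries, to -0.11 without G128 replicate 1 and -0.09 without G2 replicate 2, and to -0.71 without G128 replicate 2 and -0.73 without G2 replicate 1.

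**Figure D2:**
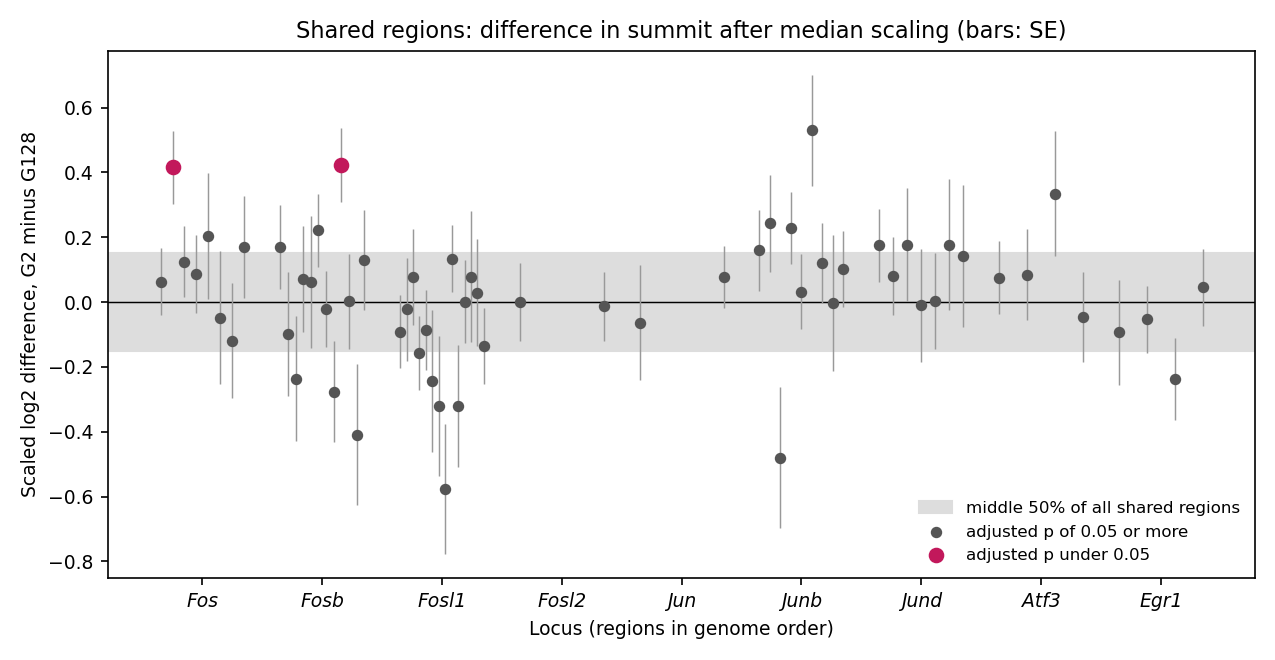
Scaled log2 difference in summit height, G2 minus G128 (vertical axis), of the 62 shared regions, grouped by gene and in genome order within each gene. Bars are the standard error from limma, the grey band spans the middle 50% of all shared regions (-0.15 to 0.15), and the called regions at Fos and Fosb are the 2 larger points.

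Fosl1, which encodes Fra-1, had the densest window, with 17 regions in 50 kb, and the lowest median scaled difference of the 9 loci, -0.09 over 14 shared regions. The strongest region, chr19:5456085-5458030, had 209 and 262 times the background on G128 and 303 and 344 times on G2. Its scaled difference was 0.13 ± 0.10 (SE), with an adjusted p of 0.574. Within the window, chr19:5451539-5452069 was the 1 region of the 62 where both G2 libraries were lower before scaling. It had 34.1 and 42.5 times on G128 and 33.7 and 30.7 times on G2. Its scaled difference was -0.58 ± 0.20 (SE), the lowest of the set, and its adjusted p of 0.139 did not pass 0.05. The first region, chr19:5429346-5430509, crossed the edge of the window and had 161 to 206 times in the 4 libraries.

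Fosl2, which encodes Fra-2, had a compact pair of strong regions and little else. The stronger, chr5:32437332-32439241, had 277 and 261 times the background on G128 and 316 and 357 times on G2. The ratio was 1.25, close to the general shift, and the scaled difference was -0.01 ± 0.11 (SE), with an adjusted p of 0.968. The other, chr5:32435231-32436656, had 129 and 182 times on G128 and 188 and 197 times on G2, with a scaled difference of -0.0007 ± 0.12 (SE). The other 4 regions of this window had summits of at most 31.4 times and were each missing from at least 1 library.

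Atf3, a basic leucine zipper factor of the stress response, had 6 regions in 90 kb. The strongest, chr1:193006147-193007824, had 161 and 179 times the background on G128 and 223 and 228 times on G2. Its scaled difference was 0.08 ± 0.11 (SE), with an adjusted p of 0.795. A group of regions began 32.9 kb to its right. In that group, chr1:193054181-193054878 had no peak in G128 replicate 1 and reached 22.0 times in the other G128 library, against 52.8 and 52.6 times on G2. This was the highest summit among the 24 regions that lacked a peak in some library, and no test could be made of it because G128 replicate 1 gave no value.

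Egr1, a zinc finger factor induced through SRF, had the widest region of the set at chr18:35019373-35023733. Its summits were 213 and 249 times the background on G128 and 274 and 286 times on G2, a ratio of 1.21. The scaled difference was -0.05 ± 0.10 (SE), with an adjusted p of 0.850. The region next to it, chr18:35024468-35026323, had 120.5 and 134.6 times on G128 and 128.3 and 143.9 times on G2. Its groups overlapped even before scaling, and its scaled difference was -0.24 ± 0.13 (SE), with an adjusted p of 0.374. At 26.5 kb to the right, chr18:35046659-35047688 had 163 and 153 times on G128 and 206 and 205 times on G2.

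Over all 9 windows, the difference between the materials was close to that of the genome. The lower G2 library exceeded the higher G128 library in 47 of the 62 shared regions (75.8%), against 67.6% of all shared regions, and the reverse held in 1 (1.61%), against 2.79%. After median scaling these counts were 16 (25.8%) above, against 23.8% of all, and 11 (17.7%) below, against 21.9%. By limma with Benjamini-Hochberg adjustment over 27768 regions, 2 of the 62 were higher on G2, against 0.601% of all regions. None of the 62 was lower, against 0.864%. At an unadjusted p under 0.05 there were 4 higher and 2 lower, together 9.68% of the 62, against 15.0% of all shared regions (7.39% higher and 7.61% lower). The median scaled difference was 0.039 over the 62 and 0.011 over all shared regions. It was positive in 36 of the 62 (58.1%), against 52.2% of all. At Fosl1 5 of 14 shared regions were positive, at Egr1 1 of 4 and at Fosl2 0 of 2. Strong regions tended to positive scaled differences in the whole genome. Among regions above 100 times the background, 20 of 30 in the windows were positive, against 68.6% of the 8494 in all, with medians of 0.08 and 0.07.

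The height order of the strongest regions was Jun with a mean of 402 times the background over the 4 libraries, Fosl2 with 303, Fos with 301.2 and Fosl1 with 279. Egr1 followed with 256, Jund with 224, Junb with 210.4, Fosb with 207 and Atf3 with 198. Jun was first in each library. Neighbours such as Fosl2 and Fos, or Junb and Fosb, were less far apart than the libraries of a group. The strongest regions exceeded 88.6 to 98.7% of shared regions in height. Since each is the highest of its window, they were also set beside the highest shared region of each 50 kb tile of the genome. They exceeded that of 80.0% (Atf3) to 97.5% (Jun) of the 13917 tiles with a shared region. The windows were 40 to 90 kb long, and no correction was made for this difference in length from the tiles. In number, the windows of Fosl1, Junb and Fosb held 17.0, 16.3 and 13.0 regions per 50 kb. The 17615 tiles of 50 kb that held any region had a median of 2, with 5 at the 90th percentile. Jun and Atf3, at 3.33 per 50 kb, held more regions than 76.8% of these tiles, although the windows were placed around genes and the tiles were not.

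The widest regions were listed as different numbers of peaks in some libraries, and of the 5 only the one at Junb divided by group. Of the 62 shared regions, 5 were wider than 2000 bp (8.06%, against 1.96% of all shared regions): those at Egr1 (4361 bp), Jun (4249 bp), Junb (3844 bp), Fosl1 (2900 bp) and Fosb (2281 bp). The Junb region was listed as 3 peaks in G128 replicate 1 and as 2 in G128 replicate 2, and as 1 peak in each G2 library. The pieces covered 3003 and 3721 bp on G128, and the single peaks 3564 and 3794 bp on G2. The authors' signal of the best peak there ranked 1385 and 959 in the G128 lists and 30 and 32 in the G2 lists, while the summits differed by a ratio of 1.47. Ranks come from lists of different lengths, and the signal of a peak grows with its width. At Jun, 3 libraries had 2 peaks separated by 306 to 332 bp, and G2 replicate 2 had 1. At Egr1, G128 replicate 1 had 2 peaks separated by 216 bp and the other 3 libraries had 1. The Fosl1 region, chr19:5473033-5475932, had 3 and 2 peaks on G128 and 3 and 1 on G2, and the Fosb region had 1 in each library. More pieces in both G128 libraries than in both G2 libraries were seen in 2 of the 62 regions (3.23%), against 1.73% of all shared regions, and the reverse in 0, against 0.184%. Both lay at Junb, the other being chr8:87492995-87494245, 1251 bp wide, with 2 peaks in each G128 library and 1 in each G2 library. Summits in the wide regions of Junb, Jun and Egr1 were also lower over the background on G128, and the part of this in the splitting was not tested.

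**Figure D3:**
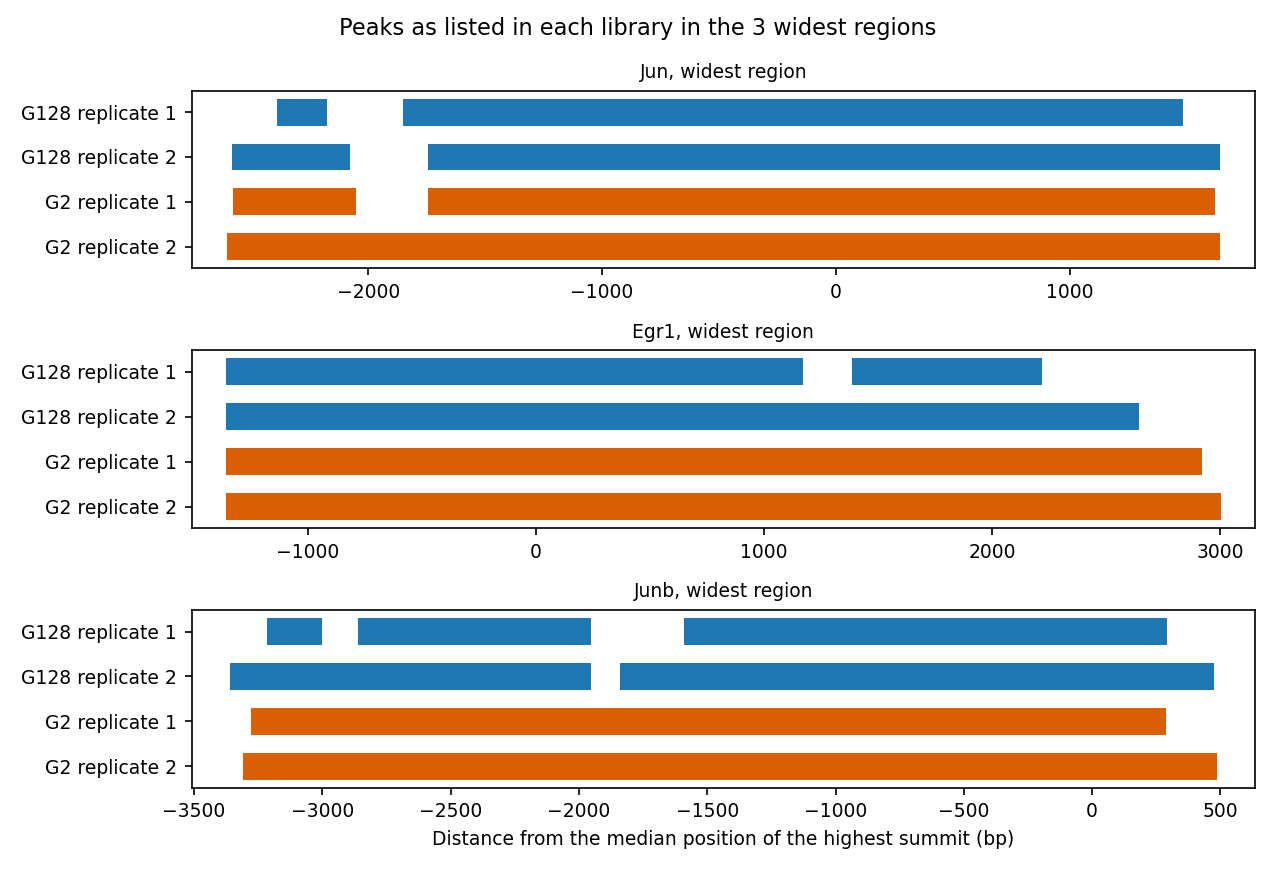
Peaks as listed in each library (bars, blue for G128 and orange for G2) in the widest regions of Jun, Egr1 and Junb, against the distance in bp from the median position of the highest summit (horizontal axis). At Junb both G2 libraries have 1 peak where the G128 libraries have 3 and 2.

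Few regions of the windows belonged to a single group. Both G2 libraries and no G128 library had a peak in 2 of the 86 regions (2.33%), against 8.32% of all regions, and the reverse held for 0, against 0.37%. The first was chr12:86818878-86819421 at Fos, with summits of 29.1 and 27.0 times the background on G2. The other was chr1:192977085-192977250 at Atf3, with 23.7 and 20.5 times. Both were weak, where the weakest peak of each list stood at 18.2 to 19.0 times the background. Absence of a peak does not show closed chromatin. With the same number of strongest peaks from each list, 2 of 73 regions were of G2 alone, against 3.76% of all regions. Missing from G128 replicate 1 alone were 7 of the 86 regions (8.14%), against 9.48% of all regions. The 24 regions without a peak in some library had a median summit of 24.3 times the background where a peak was listed.

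The peaks covered more sequence on G2, while the number of listed peaks was about the same. A region can be listed as several peaks, and regions with a peak numbered 64 and 76 on G128 and 74 and 80 on G2. Peaks in the windows numbered 79.5 ± 4.95 on G128 and 80 ± 1.41 on G2 (SD, n = 2 each), a ratio of 1.01, against 1.20 for all peaks. They covered 52.4 and 63.6 kb in the G128 libraries and 65.2 and 71.6 kb in the G2 libraries, a ratio of 1.18, against 1.24 for all peaks. Both G2 libraries covered more than both G128 libraries at 8 of the 9 loci. The share of other windows of the genome with this order was not computed, so the count is not particular to these loci. The exception was Fosl1, with 11.3 and 14.0 kb on G128 and 12.6 and 14.0 kb on G2. At Fos, covered sequence was 5.26 and 6.49 kb on G128 and 7.47 and 8.55 kb on G2, the largest ratio of the 9 loci at 1.36.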

How the data were processed

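ATAC-seq peak lists of 4 libraries were used, 1 list per library, so replicates were not pooled. Per the submitters' processing notes, Bowtie2 2.2.5, SAMtools 1.7 and Genrich 0.5 were among the tools and the build was mm9. Settings, the treatment of duplicates and any shift of reads are not given in the sources used here. The 4 RNA libraries were not analysed here.

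The deposited lists give a score, a signal, −log10 p-values and q-values and the offset of the summit from the peak start (another value, in bp) for each peak. The deposited signal is the caller's own and is not scaled between libraries. Summit pileups were computed back from those p-values. The normal quantiles of the lowest 100 distinct values were fitted as a line in the logarithm of successive whole numbers, which also gives the mean of the log-normal background. Recovered pileups lay within 0.0018 of a whole number. The recovery was also run on p-values simulated from the fitted background, with successive whole numbers from the lowest pileup added. That run takes the assumptions of the recovery as given and cannot test them on the deposited lists.

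Coordinates count from 1. A region's height in a library is its highest summit there. Regions were tested with limma 3.58.1 in R 4.3.3, with a trend of the variance with height, on log2 heights after subtracting library medians, and called at an adjusted p of 0.05. Other steps used Python 3.11.15. The members, lists and tests were chosen with earlier results of these data known, so sums over the windows got no test. Named were all 9 loci, the strongest region of each, each called or single-group region and the 3 largest differences of each sign. Further regions of each window were described after their values were seen. Alternatives concerned scaling, filter, model, overlap, threshold, window and libraries.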

Additional observations from a re-analysis of the deposited data

How the results depend on the processing

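Without median scaling, which leaves in a shift of 0.34 (log2) in the median of all shared regions, 16 of the 62 regions were higher on G2, against 26.6% of all, and the median difference was 0.37. Quantile normalization, cyclic loess, a mean height of at least 40 times the background, and the deposited signal each gave 0 higher regions. Of all regions tested, 0.155, 0.306, 0.314 and 0.241% were called higher in these settings, in that order. A fit without the variance trend also gave 0 higher regions. With the trend left out, an alternative added after the data were seen, limma called 0 of all 27768 regions. None of these 6 settings gave a lower region in the windows, against 0 to 0.603% of all regions tested. The deposited signal gave a median of -0.17, against -0.10 for all shared regions, and the cause was not tested. With that signal the strongest region of each of the 9 loci had a negative difference, from -0.37 at Fosl1 to -0.008 at Junb. The replicate block gave 1 higher region, at Fos, against 0.828% of all, and 0 lower, against 1.38%. Deviations of same-numbered libraries from their group means correlated at 0.0028 over the shared regions. Whether these libraries shared a culture or a batch is not stated, and this correlation cannot decide it. Without each library in turn, 0 to 2 of the 62 regions were higher, against 0.0576 to 1.58% of all, and 0 to 1 lower, against 0.169 to 1.56%, with medians of -0.0099 to 0.099, where the lone library of a group is assumed to vary like the others.

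Regions with peaks in 1 group are given beside the share of all regions. A reciprocal overlap of 50% gave 5 of 113 on G2 (7.73% of all) and 2 on G128 (2.01%). A p 10 times below the weakest gave 4 of 64 on G2 (7.94%), and the middle part of each window 1 of 51 (8.32%, over the whole genome). The same number of strongest peaks from each list gave 2 of 73 on G2 (3.76%) and 1 on G128 (1.47%). Leaving out each library gave 2 to 9 of 84 to 86 on G2 (9.70 to 18.2%) and 0 to 2 on G128 (0.834 to 2.68%). The ratio of peaks in the windows was 0.926 with equal numbers of peaks, 0.970 in the middle part of the windows and 0.964 to 1.05 without each library, an alternative added after the data were seen. With 2 libraries a group, depth and number of libraries limit what weak regions can show.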
